A study of Ovis aries with 44 samples.

Results

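The data describe what a callipyge allele inherited from the sire added to the muscle of lambs that already carried one from the dam. Homozygous (*C/C*) lambs were compared with maternal heterozygous (*Cmat/+*) lambs at 30 d of age, with 3 lambs and 3 arrays in each group out of the 22 arrays of the series. The 6 arrays were chosen by the genotype and age in their labels, and *C/C* minus *Cmat/+* was calculated for 24016 probe sets. The remaining arrays at 30 d came from 2 paternal heterozygous, callipyge (*+/Cpat*) and 2 normal (*+/+*) lambs, and 12 further arrays came from *+/Cpat* and *+/+* lambs at 10, 20 and 80 d. The lambs were kept indoors, and those of up to 30 d were nursed by ewes, whereas the study's methods place weaning before 80 d. RNA of the *semimembranosus*, a muscle of the hind leg, was hybridized to bovine Affymetrix arrays. Sheep RNA was therefore read by cattle probes. Levels of probe sets were set against one another only to call them low, dim or bright and to mark the tissue.

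The callipyge mutation (*C*) is a single base change between *DLK1* and *MEG3* in the imprinted *DLK1-DIO3* domain. It raises the transcripts of the chromosome that carries it and leaves their imprinting as it was. From the sire's chromosome come the messages of *DLK1*, a membrane protein related to the Notch ligands, and *RTL1*, a protein derived from a retrotransposon. From the dam's chromosome come noncoding RNAs, among them *MEG3* and *MEG8*. Muscle hypertrophy is known only in *+/Cpat* lambs, an inheritance called polar overdominance, so neither *C/C* nor *Cmat/+* lambs are muscular. *C/C* and *Cmat/+* lambs both carry the mutation on the dam's chromosome and differ by the mutation on the sire's. Probe sets for *RTL1* are not on this array.

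The labels were first checked against the domain. *MEG3*, a noncoding RNA of the dam's chromosome, had RMA values (log2) of 12.14, 12.27 and 12.31 in the *C/C* lambs and 12.50, 12.30 and 12.44 in the *Cmat/+* lambs. In *+/Cpat* lambs it was at 9.63 and 9.65, and in *+/+* lambs at 7.62 and 6.94. All 6 lambs with a maternal *C* allele were above the 4 lambs without one. The genes of contractile muscle marked the tissue in every lamb, with a mean over 9 measured markers of 13.99 to 14.05 in *C/C* and 14.00 to 14.08 in *Cmat/+*. Median RMA values of the 6 arrays were 5.41 to 5.45, and the medians of the unscaled MAS5 intensities were 17.3 to 24. Arrays of the same group correlated at 0.985 to 0.993 over all probe sets, and no pair held the same values.

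The lambs of each group were not alike in 2 respects. *XIST*, the RNA that coats the inactive X chromosome of females, had a mean of 5.62, 6.12 and 3.82 in the *C/C* lambs and 3.89, 5.80 and 3.82 in the *Cmat/+* lambs, over the 4 of its 6 probe sets that ranged over more than 1 among the lambs. It was at 6.18 and 5.57 in *+/Cpat* and 3.91 and 4.05 in *+/+* lambs. High values thus occurred in 2 of 3 *C/C* lambs, 1 of 3 *Cmat/+* lambs, 2 of 2 *+/Cpat* lambs and 0 of 2 *+/+* lambs. The labels give no sex, and the part of *XIST* level in the differences between *C/C* and *Cmat/+* was not tested beyond a fit with it as a covariate. *MEG3* marks the dam's *C* allele and does not tell *C/C* from *Cmat/+*, so the labels were not checked for the sire's allele by it. In the third lamb labelled *Cmat/+*, *DLK1*, a gene of the sire's chromosome, was at 11.02, above every *C/C* lamb. Whether a wrong label or variation between lambs lies behind this level was not tested. The lamb was kept under its label, and results that rest on it are given with and without it.

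*DLK1* did not separate the groups. Its main probe set read 10.44, 9.70 and 10.39 in *C/C* and 9.56, 9.21 and 11.02 in *Cmat/+* lambs, beside 11.88 and 11.40 in *+/Cpat* and 9.38 and 8.47 in *+/+*. The third *Cmat/+* lamb was above all *C/C* lambs, whereas the first and second were below them. The difference was 0.25 (SE 0.415, 95% interval -0.66 to 1.16, limma adjusted p = 0.96). Without the third *Cmat/+* lamb it was 0.80 (SE 0.297, limma adjusted p = 0.402). A second, dimmer probe set of *DLK1* read 5.69, 5.44 and 5.98 in *C/C* against 5.11, 4.51 and 5.60 in *Cmat/+*, a difference of 0.63 (SE 0.253, limma adjusted p = 0.946). At 10, 20 and 80 d the main probe set ranged from 10.97 to 11.98 in 6 *+/Cpat* lambs and from 9.06 to 9.54 in 6 *+/+* lambs. The *C/C* lambs lay between these ranges, and the third *Cmat/+* lamb lay at the lower end of the callipyge range.

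The noncoding RNAs of the domain did not separate the groups either. *MEG3* differed by -0.18 (SE 0.155, 95% interval -0.52 to 0.16, limma adjusted p = 0.946) in the probe set given above, and its other probe sets by -0.24 to 0.08. *MEG8*, the host of small nucleolar RNAs, read 3.22, 3.89 and 3.61 in *C/C* and 3.71, 4.01 and 3.56 in *Cmat/+*, a difference of -0.19 (SE 0.169). A second probe set of *MEG8* differed by -0.31 (SE 0.173). Both read low, below the array medians of 5.41 to 5.45, where a difference is hard to see. Of 10 measured genes in the domain and its flanks, 0 passed an adjusted p under 0.1, 4 were above and 6 below 0, and the median difference was -0.03 against -0.01 over all probe sets. Taking the 20 genes on each side of *DLK1* in the sheep gene order, 18 of 40 had a probe set. Their differences ran from -0.25 to 0.36, and 1, the poly(A) polymerase gene *PAPOLA*, had an unadjusted p under 0.05 (difference 0.36, SE 0.153, limma adjusted p = 0.946), while a second probe set of it differed by -0.22 (SE 0.0979).

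**Figure D1:**
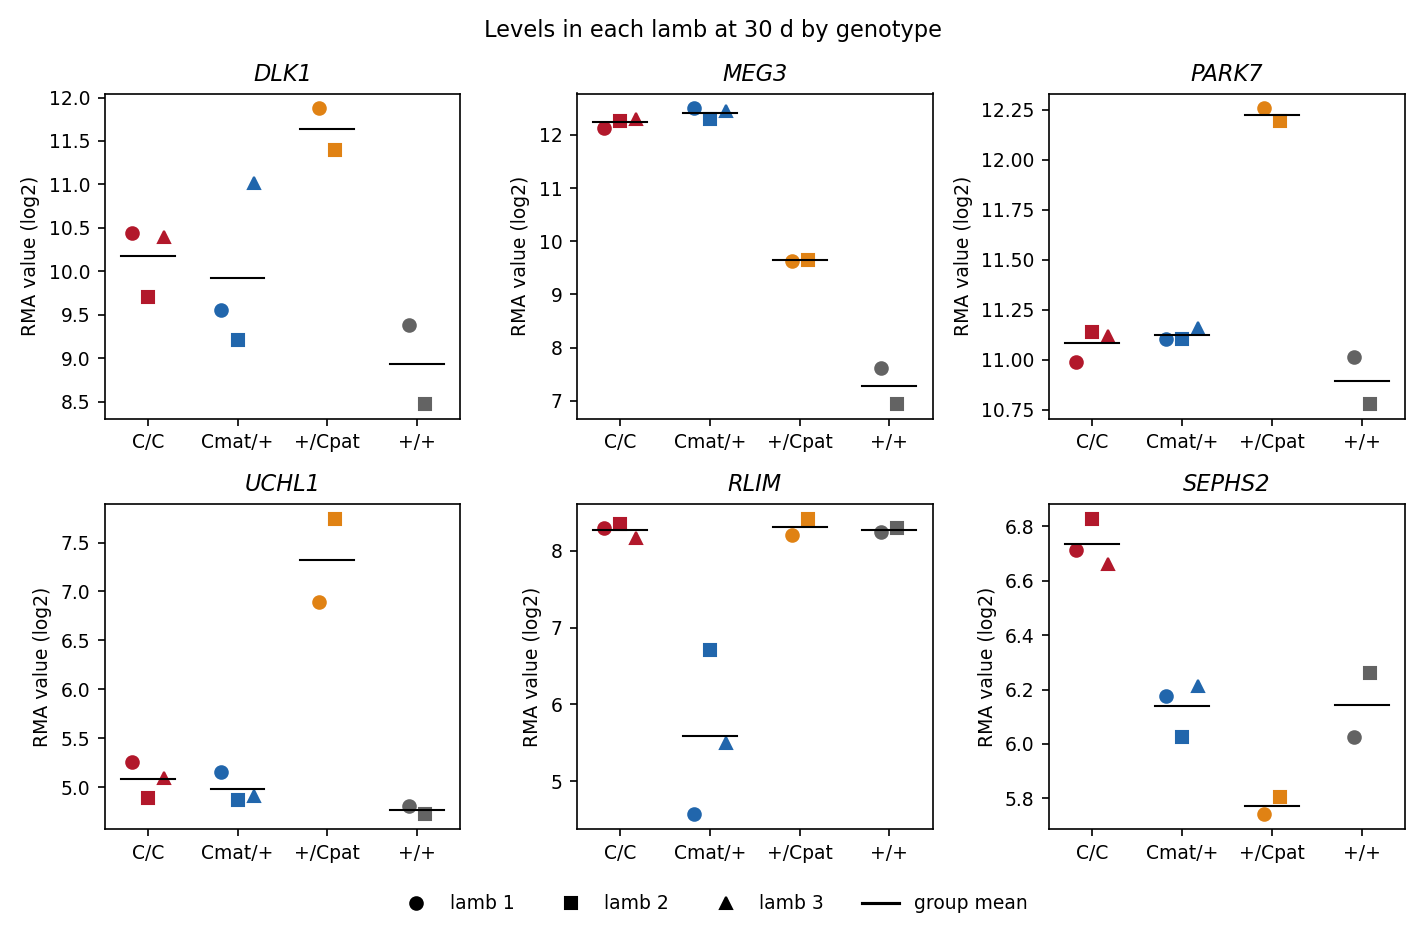
RMA values (log2, y axis, a separate scale for each gene) of 6 genes in each lamb at 30 d, grouped by genotype. Symbols are lambs and lines are group means. *C/C* and *Cmat/+* lambs overlapped in *MEG3*, *PARK7* and *UCHL1*, *DLK1* was high in the third *Cmat/+* lamb (11.02), and *RLIM* was low in *Cmat/+* lambs alone among these 10 lambs.

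No probe set passed an adjusted p under 0.1 between *C/C* and *Cmat/+* lambs (0 of 24016, percent called 0, limma with Benjamini-Hochberg adjustment). The smallest adjusted p was 0.58. An unadjusted p under 0.05 was reached by 1187 probe sets (4.94%), of which 729 were higher (3.04%) and 458 lower (1.91%) in *C/C*. When limma did not share the variance between probe sets, which is how the study proceeded, 0 passed the adjusted threshold and 1117 had an unadjusted p under 0.05. With MAS5 values the split of those under 0.05 turned, to 483 higher and 765 lower, so no excess of either direction is reported. Values of the 3 *C/C* lambs lay entirely above those of the 3 *Cmat/+* lambs in 959 probe sets (3.99%) and entirely below in 1015 (4.23%). An exact permutation test of 3 lambs against 3 cannot give a two-sided p below 0.1. Differences were small: the median absolute difference was 0.098 with a median SE of 0.130, and 14 probe sets were higher and 3 lower by more than 1 on the log2 scale.

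**Figure D2:**
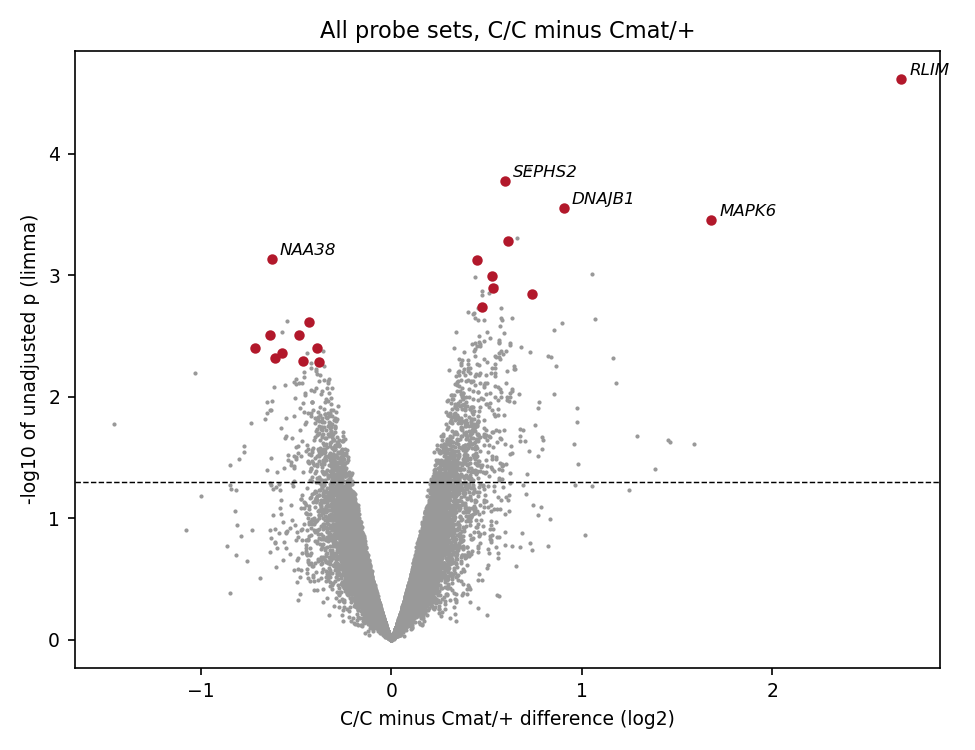
Difference between *C/C* and *Cmat/+* lambs (log2, x axis) and -log10 of the unadjusted limma p (y axis) for 24016 probe sets, with the 10 higher and 10 lower named genes of smallest p in red. The dashed line marks an unadjusted p of 0.05, and *RLIM*, at a difference of 2.68, stands farthest to the right.

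The genes of smallest p are described without a claim that they changed, since none passed the adjusted threshold. *RLIM*, an X-linked ubiquitin ligase involved in X inactivation, had the largest difference of all. It read 8.29, 8.35 and 8.16 in *C/C* lambs and 4.57, 6.70 and 5.50 in *Cmat/+* lambs. *+/Cpat* lambs were at 8.20 and 8.42 and *+/+* lambs at 8.24 and 8.30, so the low values were those of the *Cmat/+* lambs. The *C/C* lamb of low *XIST* was at 8.16, and with *XIST* level as a covariate the difference was 2.40. The difference was 2.68 (SE 0.386, 6.4-fold, limma adjusted p = 0.58), and 2.48 with MAS5 values. Without the second *Cmat/+* lamb, which lay nearest to the other lambs, it was 3.23 with a limma adjusted p of 0.00151, and it was then the single probe set called. Leaving out that lamb removed the *Cmat/+* value nearest to *C/C*. With any other *C/C* or *Cmat/+* lamb left out the limma adjusted p was 0.208 to 0.998, and with unshared variances it was 0.953. In the 12 lambs of 10, 20 and 80 d *RLIM* ranged from 5.39 to 8.44, so a low value also occurred in a *+/+* lamb.

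*SEPHS2*, a selenophosphate synthetase that supplies selenium for selenoproteins, read 6.71, 6.83 and 6.66 in *C/C* and 6.18, 6.03 and 6.21 in *Cmat/+* lambs. The groups did not overlap, and the 4 other lambs at 30 d (5.74 to 6.26) and the 12 lambs of other ages (5.46 to 6.56) were also below every *C/C* lamb. The difference was 0.60 (SE 0.107, 1.51-fold, limma adjusted p = 0.946; exact permutation p = 0.1). *SEPHS2* is one of the transcripts that the study followed for the maternal allele, a choice made on these arrays. The study's PCR, whose values it does not show, also found *SEPHS2* higher in *C/C* muscle at the age of the *C/C* lambs here. Across all the ages assayed by PCR, the study found no significant effect of genotype on it. Of the 21 measured genes of selenium metabolism, 12 were above and 9 below 0 with a median of 0.00. Of them 3 higher, *SEPHS2* included, and 1 lower had an unadjusted p under 0.05, against 3.04% and 1.91% of all probe sets. The higher ones besides *SEPHS2* were *TXNRD1*, cytosolic thioredoxin reductase (0.29, SE 0.125), and *SELENOK*, a selenoprotein of the endoplasmic reticulum (0.33, SE 0.144), and the lower one was the glutathione peroxidase *GPX2* (-0.56, SE 0.210).

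*DNAJB1*, a cochaperone of HSP70, read 7.81, 7.71 and 8.21 in *C/C* and 6.66, 7.13 and 7.23 in *Cmat/+* lambs. Its second probe set read 8.03, 7.82 and 8.46 against 7.03, 7.70 and 7.72. Neither probe set overlapped between the groups, with differences of 0.90 (SE 0.173) and 0.62 (SE 0.203). *MAPK6*, an atypical MAP kinase known to be high in callipyge muscle, read 9.15, 8.13 and 9.29 in *C/C* and 6.84, 6.89 and 7.81 in *Cmat/+* lambs, beside 8.48 and 9.09 in *+/Cpat* and 7.62 and 8.03 in *+/+*. The difference was 1.68 (95% interval 0.95 to 2.41, limma adjusted p = 0.946), and the 6 *+/Cpat* lambs of other ages had a median of 9.11. Of the 3 other probe sets of *MAPK6*, 2 had the same direction at a smaller size, 0.63 (SE 0.201) and 0.15 (SE 0.095), and 1 the opposite, -0.42 (SE 0.183). *CHCHD4*, which imports proteins into the space between the mitochondrial membranes, read 7.25, 7.36 and 7.70 against 6.88, 6.85 and 6.75, a difference of 0.61 (SE 0.127).

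The other named genes that were higher in *C/C* concern transport, signalling and the nuclear pore. *NPC1*, a lysosomal cholesterol transporter, differed by 0.74, the small GTPase *RAP2C* by 0.54, the nucleoporin *NUP153* by 0.53, *RALGAPB*, a subunit of the Ral GTPase-activating complex, by 0.47 and *ATP6V1A*, a subunit of the proton pump of lysosomes, by 0.45. Among the lower ones, *NAA38*, a subunit of an N-terminal acetyltransferase, read 7.70, 7.99 and 8.07 in *C/C* and 8.66, 8.59 and 8.39 in *Cmat/+* lambs (difference -0.63, SE 0.136). *MYOZ3*, a protein of the Z disc, read 9.01, 9.11 and 9.21 against 9.54, 9.70 and 9.82 (difference -0.57, SE 0.161). *SH3BGR*, abundant in muscle, read 11.97, 11.70 and 12.29 against 12.41, 12.50 and 12.88 (difference -0.61, SE 0.174). The remainder were the arrestin relative *ARRDC2* (-0.71), the methionine sulfoxide reductase *MSRB2* (-0.64), myosin light chain kinase *MYLK* (-0.48), the decarboxylase *DDC* (-0.46), the glucose-6-phosphate transporter *SLC37A4* (-0.43), *TECTB* (-0.39) and *CDC6*, a factor of DNA replication (-0.38). All had a limma adjusted p of 0.946. With MAS5 values *CDC6* differed by 0.37, *SLC37A4* by -0.09 and *TECTB* by -1.60. The probe sets of *CDC6* (3.32 to 3.87), *SLC37A4* (3.56 to 4.27) and *TECTB* (3.11 to 3.59) read low in all 6 lambs. Further probe sets of *ATP6V1A* differed by 0.00 to 0.29, of *MYLK* by -0.05, of *CDC6* by -0.12 and of *SLC37A4* by -0.48 and -0.08. All 20 had groups that did not overlap, which their choice by smallest p nearly fixes (3.99% of all probe sets lay entirely above and 4.23% entirely below).

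**Figure D3:**
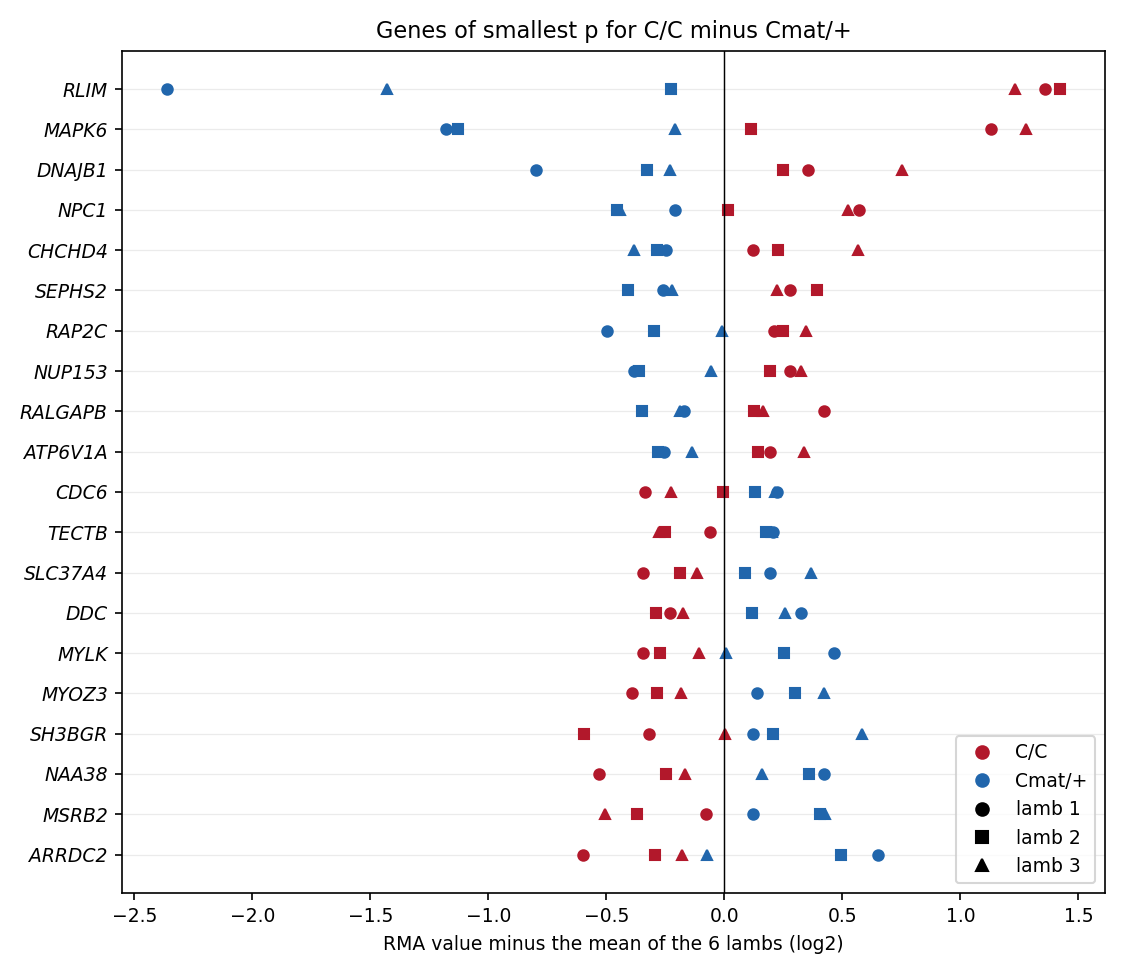
RMA value of each lamb minus the mean of the 6 lambs (log2, x axis) for the 10 higher and 10 lower named genes of smallest p. Colours are genotypes and symbols are lambs. No gene overlapped between the groups, and for *RAP2C*, *NUP153* and *ARRDC2* the third *Cmat/+* lamb lay nearest to the *C/C* lambs.

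The callipyge genes that the study verified by PCR were then compared between the addition of the sire's *C* allele with and without a *C* allele from the dam. These genes were chosen on lambs that include the *+/Cpat* and *+/+* lambs at 30 d, so the size of their difference without a maternal allele is given as a description. The median absolute difference of the 25 genes was 1.09 for *+/Cpat* minus *+/+* and 0.18 for *C/C* minus *Cmat/+*. The latter was the smaller in 24 of 25 genes, the exception being *MAPK6* (1.68 against 0.96), and 18 of 25 genes had the same sign in both. The share of same signs over all probe sets was not counted. None of the 25 passed the threshold in *C/C* minus *Cmat/+*, and their median was 0.09 against -0.01 over all probe sets. Of them, 2 higher and 1 lower had an unadjusted p under 0.05, against 3.04% and 1.91% of all probe sets. The lower one was *LPL*, lipoprotein lipase, at 7.04, 8.21 and 7.63 in *C/C* and 8.49, 8.17 and 8.21 in *Cmat/+* lambs (difference -0.67, SE 0.232).

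*DLK1*, *PDE7A* and *PDE4D* were higher in the third *Cmat/+* lamb than in every *C/C* lamb. *DNTTIP1* was higher in it than in both other *Cmat/+* lambs. These genes were singled out of the 25 after their levels in this lamb were seen. Over the 25 genes, this lamb was above every *C/C* lamb in 9 and above both other *Cmat/+* lambs in 14. How often probe sets at large show such a pattern was not counted. *PDE7A*, a phosphodiesterase that degrades cAMP, read 8.48, 9.14 and 8.21 in *C/C* and 7.47, 7.86 and 9.66 in *Cmat/+* lambs, with 9.14 and 9.62 in *+/Cpat*. *DNTTIP1*, a subunit of a histone deacetylase complex, read 10.47, 10.80 and 11.06 in *C/C* and 9.78, 9.54 and 10.69 in *Cmat/+* lambs, with 11.57 and 11.84 in *+/Cpat*. *PDE4D*, another phosphodiesterase, read 10.26, 10.55 and 10.60 against 10.02, 9.30 and 10.98. Without the third *Cmat/+* lamb, *PDE7A* differed by 0.95 in place of 0.28, *DNTTIP1* by 1.12 in place of 0.78 and *PDE4D* by 0.81 in place of 0.36. *METTL21E*, a methyltransferase gene of muscle, read 7.21, 7.90 and 8.41 in *C/C* and 8.46, 8.41 and 7.99 in *Cmat/+* lambs. In *+/Cpat* lambs it read 10.48 and 10.34. Since *METTL21E* was no higher in *C/C* than in *Cmat/+* lambs, its level cannot tell which of these labels the third lamb should have. Across all probe sets 0 passed the adjusted threshold without the third *Cmat/+* lamb, and 2673 in place of 1187 had an unadjusted p under 0.05.

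**Figure D4:**
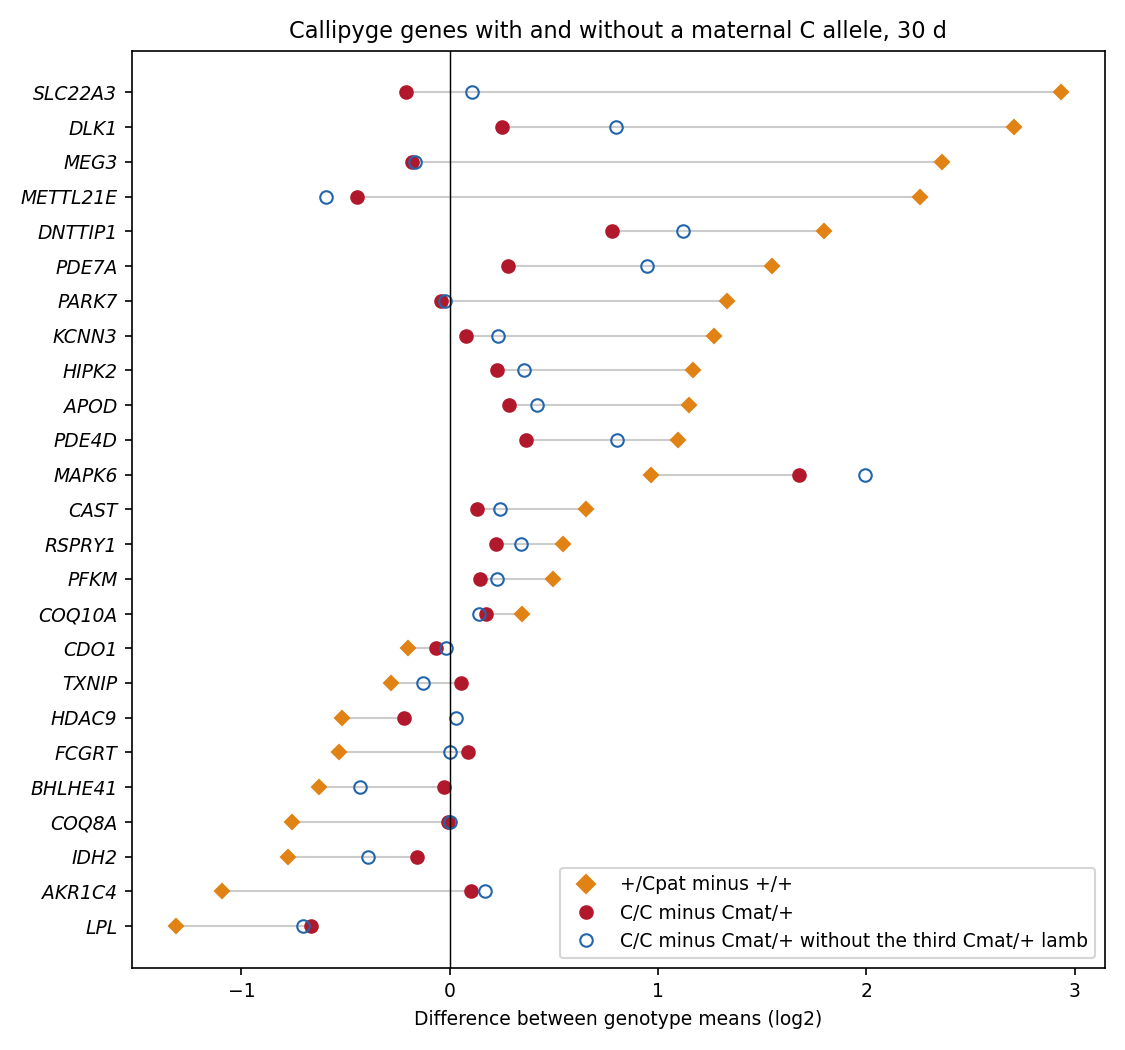
Difference (log2, x axis) of 25 callipyge genes for *+/Cpat* minus *+/+* (diamonds), *C/C* minus *Cmat/+* (filled circles) and the latter without the third *Cmat/+* lamb (open circles). Circles lie nearer to 0 than diamonds in 24 of 25 genes for the filled circles, and *DLK1*, *PDE7A* and *PDE4D* moved most to the right when that lamb was left out.

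The difference between these additions was tested as an interaction, *C/C* minus *Cmat/+* less *+/Cpat* minus *+/+*, which share no lamb. It passed an adjusted p under 0.1 for 3 of 24016 probe sets (0.0125%), all negative. *+/Cpat* minus *+/+* at 30 d itself passed for 4 probe sets (0.0167%), all higher. *MEG3* was 2.36 higher in *+/Cpat* than in *+/+* and -0.18 apart between *C/C* and *Cmat/+*, an interaction of -2.54 (SE 0.245, limma adjusted p = 0.012) in 1 of its 5 probe sets, with -0.65 to 0.14 in the others. *PARK7*, a redox-sensitive protein that promotes AKT signalling, read 10.99, 11.14 and 11.12 in *C/C* and 11.10, 11.10 and 11.16 in *Cmat/+* lambs, whereas *+/Cpat* lambs were at 12.26 and 12.19 and *+/+* at 11.01 and 10.78 (interaction -1.37, SE 0.161, limma adjusted p = 0.0416). *UCHL1*, a ubiquitin hydrolase, read 5.26, 4.89 and 5.09 in *C/C*, 5.15, 4.87 and 4.91 in *Cmat/+*, 6.89 and 7.75 in *+/Cpat* and 4.81 and 4.72 in *+/+* (interaction -2.45, SE 0.304, limma adjusted p = 0.0485). The *+/Cpat* lambs were the high ones in *PARK7* and *UCHL1*, and *C/C* and *Cmat/+* lambs overlapped in both. For *UCHL1* the study's PCR, at a single later age, found no significant difference between *+/Cpat* and *+/+* lambs.

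The interaction of *DLK1* was -2.46 (SE 0.656), with a limma adjusted p of 1.00. *XIST* level was high in both *+/Cpat* and low in both *+/+* lambs. With *XIST* level as a covariate, a fit added after the data were seen, *MEG3* passed the threshold at -2.63 (limma adjusted p = 0.0411). *PARK7* at -1.39 and *UCHL1* at -2.58 were about as large as without it, with limma adjusted p of 0.109 each. With MAS5 values 0 probe sets passed, and the interactions were -2.13 for *MEG3*, -1.52 for *PARK7* and -2.21 for *UCHL1*.

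A wider set of callipyge probe sets was taken from the lambs of 10, 20 and 80 d, which do not include any lamb at 30 d. At those ages 197 probe sets were higher and 217 lower in *+/Cpat* than in *+/+* (limma adjusted p under 0.1). The 197 higher probe sets had a median of 0.05 in *C/C* minus *Cmat/+*, against 0.54 in *+/Cpat* minus *+/+* at 30 d and -0.01 over all probe sets. In *C/C* minus *Cmat/+*, 117 were above and 80 below 0, and 14 higher (7.11%) and 6 lower (3.05%) had an unadjusted p under 0.05, against 3.04% and 1.91% of all probe sets. Without the third *Cmat/+* lamb their median was 0.14. The 217 lower probe sets had a median of -0.02 against -0.22, with 6 higher and 6 lower of unadjusted p under 0.05. Over these 414 probe sets the 2 differences at 30 d correlated at 0.124 (Pearson), and over all 24016 at 0.201, across probe sets that share the arrays.

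Gene groups were described by their counts and medians, with 0 genes called in any of the 27 lists. For the sign counts here and below, 47.5% of all probe sets were above 0, and 48.0% of the brightest probe sets of each gene. Of 31 genes of protein breakdown, 28 were above 0 in *C/C* (median 0.16), and 0 had an unadjusted p under 0.05. They included the autophagy genes *MAP1LC3B*, at 11.40, 10.58 and 10.48 in *C/C* and 10.11, 10.30 and 10.55 in *Cmat/+* lambs (difference 0.50, SE 0.250), and *SQSTM1* (0.28, SE 0.176, with 0.36 in its dimmer probe set), and *TRIM54*, a sarcomeric ubiquitin ligase (0.33, SE 0.154). The mean level of the list was 9.34, 9.11 and 9.01 in *C/C* and 8.95 to 9.07 in *Cmat/+* lambs, and without the first *C/C* lamb the median was 0.04. Of 19 immediate early genes 14 were above 0 (median 0.29), among them *JUNB*, at 9.23, 7.66 and 8.40 in *C/C* and 7.70, 7.52 and 7.70 in *Cmat/+* lambs, and *EGR1*, at 9.67, 6.94 and 9.45 against 7.17, 7.74 and 7.40. The second *C/C* lamb was low in both, and the median of the list ran from 0.03 without the first *Cmat/+* lamb to 0.63 without the second *C/C* lamb. Of 37 heat shock and stress genes 22 were above 0 (median 0.04). *DNAJB1* and *GCLC*, which makes a precursor of glutathione, were higher at an unadjusted p under 0.05, against 3.04% of all probe sets.

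Connective tissue markers overlapped between the groups in their mean level. Of 17 fibroblast and matrix markers, 16 were below 0 (median -0.23) and 0 passed the adjusted threshold. Among them 2 were lower at an unadjusted p under 0.05, against 1.91% of all probe sets. *POSTN*, periostin of connective tissue, read 3.40, 5.13 and 5.68 in *C/C* and 6.95, 6.25 and 5.37 in *Cmat/+* lambs (difference -1.46, SE 0.516, limma adjusted p = 0.946), and *MFAP5*, of microfibrils, 8.75, 9.54 and 9.55 against 10.34, 10.11 and 9.34. The mean level of the list was 7.85, 8.21 and 8.51 in the *C/C* lambs and 8.65, 8.65 and 8.22 in the *Cmat/+* lambs, and its median without the first *C/C* lamb was -0.10. In whole muscle, fewer cells of a type and less RNA per cell cannot be told apart. Smooth muscle and pericyte markers were below 0 in 8 of 9 genes (median -0.08), endothelial markers in 10 of 13 (-0.09, turning to 0.07 without the second *C/C* lamb) and nerve markers in 6 of 8 (-0.13). Red blood cell markers had a median of 0.09, leukocyte markers -0.04 and adipocyte markers 0.01. The part of these cell types in the differences of single genes was not tested.

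Of the energy genes, 47 of 66 of the TCA cycle and respiratory chain were below 0 with a median of -0.05 and 0 of unadjusted p under 0.05, and the median turned to 0.04 without the first *C/C* lamb and 0.02 without the first *Cmat/+* lamb. *UCP3*, an uncoupling protein of muscle mitochondria, read 11.50, 11.01 and 11.26 in *C/C* and 10.57, 10.89 and 10.50 in *Cmat/+* lambs, with no overlap (difference 0.60, SE 0.168, limma adjusted p = 0.946), and 11.34 and 11.39 in *+/Cpat* against 10.34 and 10.86 in *+/+*. *PPARGC1A*, a coactivator of mitochondrial genes, read 7.91, 8.89 and 10.82 in *C/C* and 8.13, 7.69 and 7.44 in *Cmat/+* lambs. The third *C/C* lamb was far above all others and the first was within the *Cmat/+* range. The difference was 1.45 (SE 0.548), and 1.39 to 1.59 in 3 further probe sets, with a limma adjusted p of 0.946 in each. Slow fibre genes were below 0 in 11 of 13 (median -0.10, turning to 0.03 without the first *C/C* lamb), among them *LDHB*, the heart subunit of lactate dehydrogenase (-0.40, SE 0.175). Fast fibre genes had a median of 0.00, glycolysis and glycogen 0.00 and fatty acid oxidation -0.02.

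Genes of muscle formation and signalling gave single low p and no common direction. *MYOG*, myogenin, read 8.88, 8.63 and 8.94 in *C/C* and 8.14, 8.66 and 7.93 in *Cmat/+* lambs (difference 0.58, SE 0.186), and *CHRNE*, the adult subunit of the acetylcholine receptor, 8.28, 8.03 and 8.19 against 7.94, 7.42 and 7.89 (difference 0.41, SE 0.169), while the list of 22 had a median of -0.13, and 0.01 without the third *Cmat/+* lamb. In cAMP signalling (30 genes, median 0.06), *CREM*, a transcription factor that answers to cAMP, was at -0.63 (SE 0.256) in 1 of 6 probe sets, with -0.39 to -0.03 in the others, and the arrestin *ARRB2* at 0.30 (SE 0.090). In the Notch pathway (17 genes, median -0.01) *APH1A*, a subunit of gamma-secretase, was at 0.35 (SE 0.117). The medians were -0.02 for AKT and mTOR signalling, -0.04 for clock genes, -0.05 for the cell cycle and -0.06 for 21 other imprinted genes, among which *MEST* was at -0.64 (SE 0.386), and -0.52 to -0.07 in its other probe sets.

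**Figure D5:**
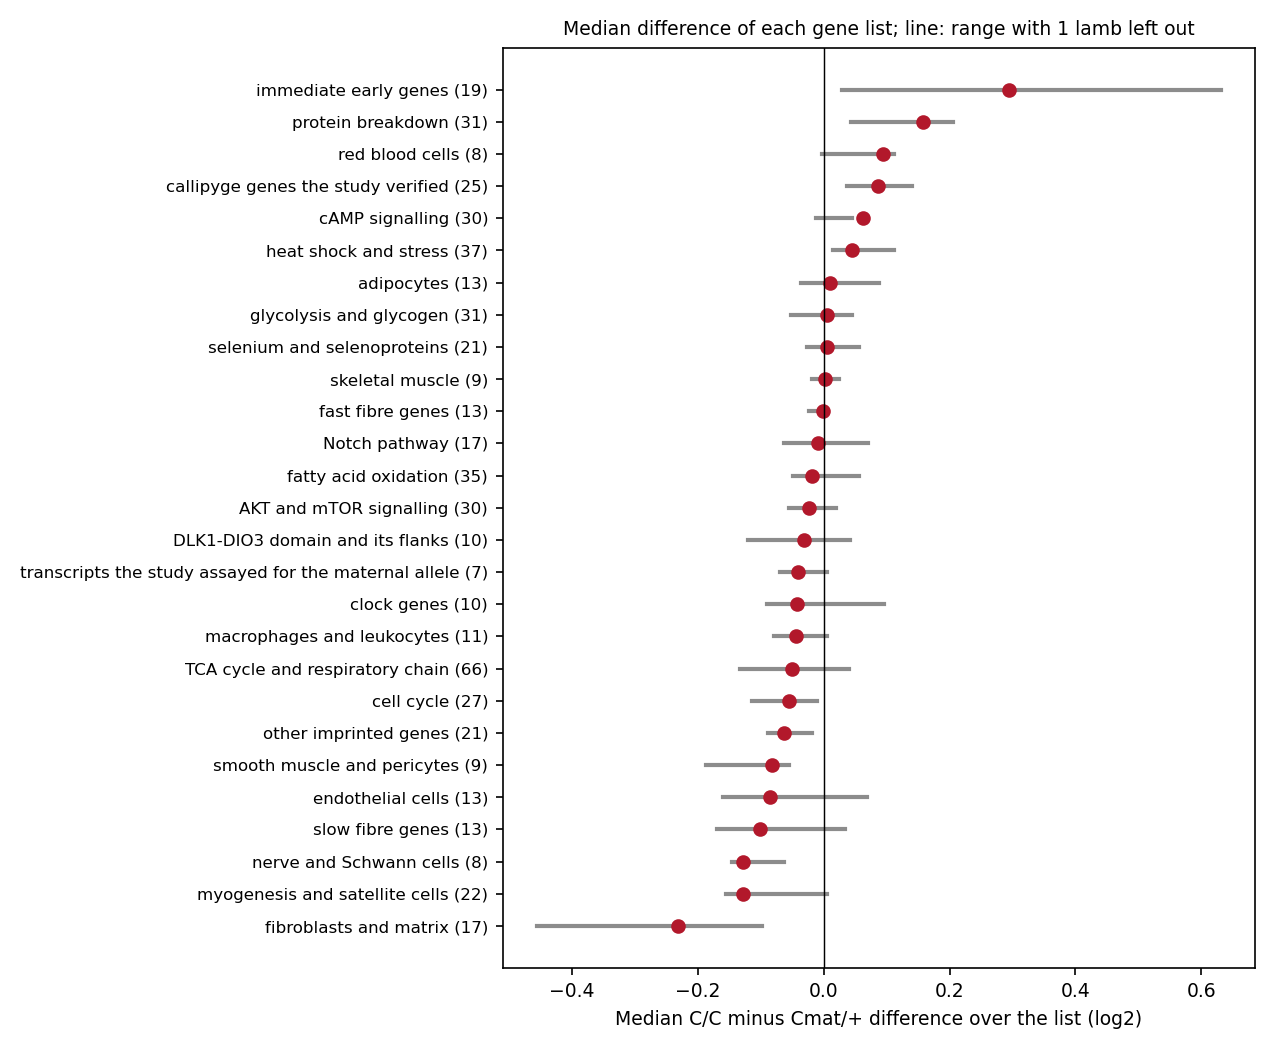
Median *C/C* minus *Cmat/+* difference (log2, x axis) of 27 gene lists, with the number of measured genes in brackets. Points use all 6 lambs and lines span the medians with each lamb left out in turn. Immediate early genes (0.29) and protein breakdown (0.16) lie highest and fibroblasts and matrix (-0.23) lowest, and the range of the immediate early genes (0.03 to 0.63) is the widest.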

How the data were processed

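RNA of the *semimembranosus* was hybridized to bovine Affymetrix arrays, 1 for each lamb. The authors deposited log2 values made by RMA (background correction, quantile normalization, probe summary) and unscaled MAS5 intensity values of the same arrays. MAS5, GCOS and RMA are named in the submitters' processing notes, with no version. The members, gene lists, rule for naming genes and tests were chosen with earlier results of these data known.

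RMA values of the 10 arrays at 30 d entered a limma 3.58.1 fit (R 4.3.3) with a mean for each genotype, the contrast *C/C* minus *Cmat/+*, and Benjamini-Hochberg adjustment over 24016 probe sets at a threshold of 0.1, as in the study. The study gave each gene its own variance, whereas limma shared it (prior degrees of freedom 5.03, residual 6). AFFX controls (112) were left out and no other filter applied. A platform annotation gave 13292 probe sets 1 symbol, 86 several and 10638 none, and 10 were named from the study's list. Counts over lists used the brightest probe set of a gene, or the study's. Named were the 10 higher and 10 lower of smallest p, genes of the study and the domain, the 5 of smallest interaction p and up to 4 of each list. *PAPOLA* and *CST3* fall outside this rule and were named after their values were seen. MAS5 values were scaled to a trimmed mean of 500 (2% at each end), offset by 16 and taken to log2. The steps were tested on simulated data. The number of arrays limits the precision. Replicates are separate lambs, whose litters are not given.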

Additional observations from a re-analysis of the deposited data

Results flagged for a closer look

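For 3 genes, the interaction between the sire's and the dam's *C* allele passed its limma test with RMA values and shared variances. The interaction was -2.54 for *MEG3* (limma adjusted p = 0.012), -1.37 for *PARK7* (limma adjusted p = 0.0416) and -2.45 for *UCHL1* (limma adjusted p = 0.0485). In each, 2 of 2 *+/Cpat* lambs were above 2 of 2 *+/+* lambs, and the 3 *C/C* and 3 *Cmat/+* lambs overlapped. The study's PCR found a difference between *+/Cpat* and *+/+* in this muscle for *MEG3* and *PARK7*. For both, it covered more ages, and its lambs included those of the arrays. That comparison is not the interaction. The PCR found no difference for *UCHL1*, which was assayed at a single age after hypertrophy had set in. With unshared variances the limma adjusted p was 0.429 for *MEG3*, 0.228 for *PARK7* and 0.862 for *UCHL1*, and 0 were called with MAS5 values. With the replicate block *MEG3* alone passed (limma adjusted p = 0.0594), against 0.239 for *PARK7* and 0.374 for *UCHL1*. With each of 10 lambs left out, *MEG3* passed in 10 fits, *PARK7* in 2 and *UCHL1* in 3. The explanation was not tested, and *XIST* level and genotype cannot be told apart between the *+/Cpat* and *+/+* lambs alone.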

How the results depend on the processing

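For *C/C* minus *Cmat/+*, 0 probe sets were called under each setting tried except array weights (1, *RLIM*, limma adjusted p = 0.0925) and leaving out the second *Cmat/+* lamb (1, *RLIM*), so that leaving out each lamb gave 0 to 1. The count of unadjusted p under 0.05 was 801 (without the second *Cmat/+* lamb) to 2673 (without the third) with a lamb left out, 656 among the brighter probe sets and 2241 with *XIST* level as a covariate. For the interaction, 0 were called with unshared variances, 0 with MAS5 values and 0 with MAS5 values normalized by quantiles, 1 with *XIST* level as a covariate (chosen after seeing the data), and 1 to 4 with a lamb left out. *MEG3* stayed under an adjusted p of 0.1 without each of the 10 lambs, and *PARK7* stayed under it in 2 and *UCHL1* in 3 of those 10 fits. For *+/Cpat* minus *+/+*, 2 were called with unshared variances, 0 with MAS5 values, 0 with MAS5 values normalized by quantiles and 22 with array weights, and 3 to 5 with a lamb left out. The cause was not tested.

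Same-numbered *C/C* and *Cmat/+* lambs correlated in their deviations at 0.067, 0.197 and 0.052, so the numbers were not taken as pairs, although each lamb correlated best with its own number. With the replicate block, 0 probe sets were called for *C/C* minus *Cmat/+* (limma, 1430 of unadjusted p under 0.05), 1 for the interaction and 5 for *+/Cpat* minus *+/+*.

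The median of the 197 higher callipyge probe sets ran from 0.02 to 0.14 with a lamb left out. That of the 217 lower ones was -0.0696 with MAS5 values and ran from -0.03 to 0.00 with a lamb left out. Of the 163 named probe sets, 144 had the same direction with MAS5 values and 143 with MAS5 values normalized by quantiles. A lone lamb left in a group was assumed to vary like the others.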

Other observations

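The probe set of *CST3*, cystatin C, was the fourth of those higher in *+/Cpat* than in *+/+* lambs at 30 d (difference 1.10, limma adjusted p = 0.086), beside *MEG3*, *PARK7* and *UCHL1*. It read 10.42, 10.40 and 10.26 in *C/C* and 9.96, 10.11 and 10.01 in *Cmat/+* lambs, which did not overlap (difference 0.33, SE 0.122, limma adjusted p = 0.946). Other probe sets of *CST3* differed by -0.03 and 0.00. The interaction was -0.76 (limma adjusted p = 1.00).

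The number of probe sets in which a lamb lay more than 1 (log2) from the mean of the other 2 of its group was 221, 66 and 121 for the *C/C* lambs and 67, 111 and 133 for the *Cmat/+* lambs.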
